A study of Mus musculus with 10 samples.

Results

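The genes encoding integrins and laminins were followed in 4 populations sorted on day 5 from mouse embryonic stem cells. Laminins are basement membrane proteins, each a trimer of an alpha, a beta and a gamma chain. The trimer polymerises beneath epithelia and around endothelium and muscle. Integrins are cell surface receptors built from 1 alpha and 1 beta chain. The alpha chain largely sets whether the pair binds laminin, collagen or proteins with an RGD motif. Most beta chains link the pair to the actin cytoskeleton. During gastrulation, mesoderm cells leave the epiblast and migrate between basement membranes, and endoderm becomes an epithelium that rests on one. The set held 35 genes of the 38924 in the count tables: 17 integrin alpha, 8 integrin beta, 5 laminin alpha, 3 laminin beta and 2 laminin gamma chains, each matched by stable gene identifier to its symbol.

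All cells came from 1 stem cell line, Foxa2-hCD4, in which a truncated human CD4 on the cell surface reports activity of the Foxa2 locus, so every group carries the reporter allele. Cardiac cultures received Activin A at 8, BMP4 at 1 and VEGF at 5 ng/ml. From them were sorted Foxa2+ cardiac mesoderm (Foxa2+ CM; Pdgfra+, Kdr+, hCD4+; n = 3), Foxa2- cardiac mesoderm (Foxa2- CM; Pdgfra+, Kdr+, hCD4-; n = 3) and the population labelled Flk1+ high (Pdgfra-, Kdr+, hCD4-; n = 2). Flk1 is another name for Kdr, the VEGF receptor, and the study describes the latter population as haematopoietic mesoderm. Endoderm (Pdgfra-, Kdr-, hCD4+; n = 2) came from separate cultures that received Activin A at 75 ng/ml, so its population and its culture conditions cannot be told apart. The labels do not say that replicates came from independent differentiations. The p-values therefore measure the spread between these samples, which may be technical.

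Libraries held 10926284 to 17470126 counts on genes, and 3 counts, taken as the floor of detection, equalled 0.172 to 0.275 counts per 1000000 (CPM) of these raw totals. All other CPM values were scaled to the TMM-normalised library size. The summed level of 10 cardiac mesoderm markers was 1069 to 1477 CPM in CM, 749 to 959 CPM in Flk1+ high and 131 to 219.5 CPM in endoderm, and that of 11 endoderm markers was 1283 to 1507 CPM in endoderm and 316 to 494 CPM elsewhere. The first list holds Pdgfra and Kdr and the second Foxa2, the sorted proteins and the reporter locus. These gaps were therefore in part fixed by the sort. Kdr alone was at 554 and 593 CPM in Flk1+ high and made up most of the cardiac mesoderm sum there. The 10 blood and endothelium markers, without Kdr, summed to 1464 to 1791 CPM in Flk1+ high, 371 to 624 CPM in CM and 47.0 to 94.1 CPM in endoderm. The 7 markers of pluripotent cells summed to 512 to 532 CPM in endoderm, above the 48.4 to 243 CPM of the other groups. Visceral or parietal endoderm markers (10 genes) stayed between 20.7 and 96.7 CPM, leukocyte markers (7 genes) were at 30.0 to 54.2 CPM in Flk1+ high and 13.0 to 20 CPM elsewhere, and platelet or megakaryocyte markers (7 genes) at 15.6 to 24.3 CPM in Flk1+ high and 1.3 to 6.43 CPM elsewhere. Foxa2 itself was at 20, 16 and 3.5 CPM in Foxa2+ CM, at 0.873 to 2.54 CPM in Foxa2- CM, at 183 and 186 CPM in endoderm and at 0.69 and 0.788 CPM in Flk1+ high. Replicate 3 of both CM groups stood apart: Tal1, a transcription factor of blood progenitors, was at 112 and 101 CPM there and at 34.9 to 58.1 CPM in the other 4 CM samples. In a bulk sample, fewer cells of a type and less RNA per cell cannot be told apart.

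All 4 populations expressed Lama5, Lamb1 and Lamc1, and chains of several integrins, at a high level. Levels between genes were compared per kilobase of merged exon. In Foxa2+ CM the highest mean level was that of Itgb1, the common partner of laminin, collagen and fibronectin receptors, at 76.7 CPM per kb. It was followed by the fibronectin receptor chain Itga5 at 50.1, Lama5 at 45.4, Itgb5 at 33.9, Lamc1 at 31.6, the laminin receptor chain Itga6 at 27.3, Lamb2 at 26.6 and Lamb1 at 22.3 CPM per kb. The order depended on the length used: with the longest transcript, Itga6 took 35.9% and Itga5 35.2% of the summed alpha level in Foxa2+ CM, and Lamb1 took 57% and Lamb2 42.8% of the laminin beta level. At the other end, the leukocyte chains Itgam, Itgax and Itgal had 0 to 4, 0 to 1 and 0 to 11 counts across the 10 samples, Itgb6 had 0 to 2 and the collagen receptor chain Itga2 had 0 to 11. These 5 genes did not pass the expression filter in any comparison. The other 30 did, except that Lamb3 was not tested between the CM groups.

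Laminin gamma was nearly all Lamc1, which made up 97.4% ± 0.365 (SD, n = 3) of the summed gamma level per kb in Foxa2+ CM, 97.4% ± 0.650 (SD, n = 3) in Foxa2- CM, 100% ± 0.011 (SD, n = 2) in endoderm and 99.8% ± 0.000278 (SD, n = 2) in Flk1+ high. Among integrin beta chains Itgb1 took 64.3% ± 1.98 (SD, n = 3) in Foxa2+ CM, 63.6% ± 2.89 (SD, n = 3) in Foxa2- CM, 68.2% ± 1.31 (SD, n = 2) in endoderm and 65.8% ± 0.024 (SD, n = 2) in Flk1+ high. Itgb5, a vitronectin receptor chain, took most of the rest, with means of 28.5%, 32.5%, 29.5% and 19.5% in the same order. Itgb1 thus led the beta chains in all 4 groups. The summed beta level spanned 115 to 136 CPM per kb over the 10 samples, whereas the summed alpha level was 61.9 and 70.6 CPM per kb in the endoderm samples and 96.3 to 136 CPM per kb in the other 8. The endoderm samples thus lay below all others in summed alpha chains and within their range in summed beta chains, a description without a test.

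**Figure D1:**
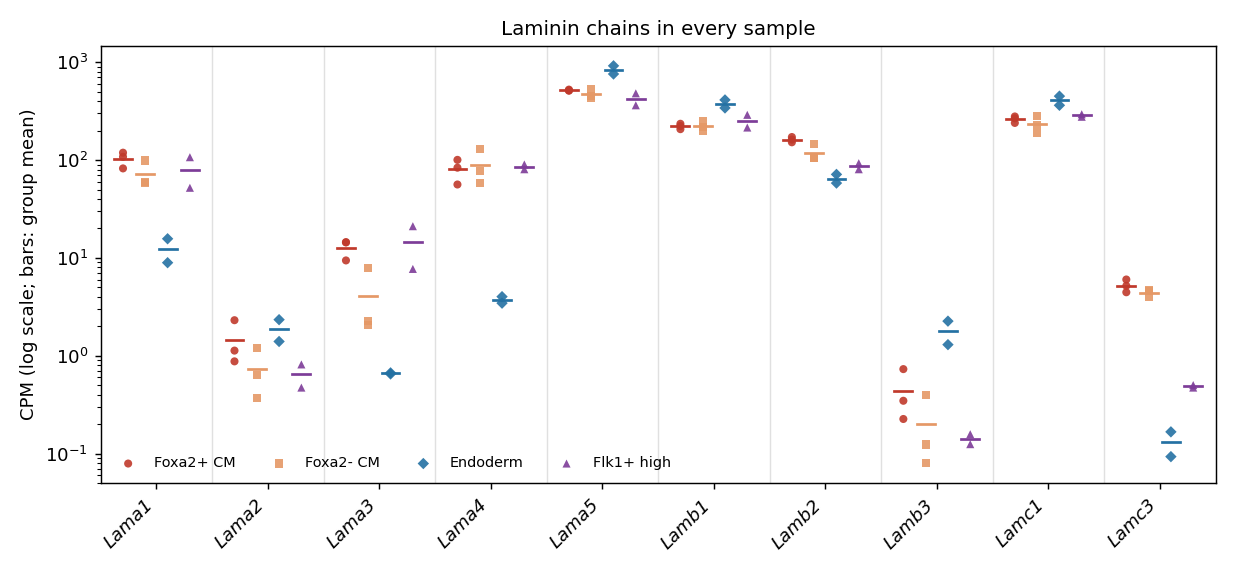
Level of the 10 laminin chains in each of the 10 samples, in CPM on a log axis, with each point 1 sample, colour and shape giving the group, and short bars the group mean. The 2 endoderm samples lie highest for Lama5, Lamb1 and Lamc1 and lowest for Lama1, Lama3, Lama4, Lamb2 and Lamc3.

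Foxa2+ CM was compared with Foxa2- CM to ask how the cells with and without reporter activity differ within cardiac mesoderm. Of 29 adhesion genes tested, 2 were higher in Foxa2+ CM, 1 was lower and 26 did not pass the test. Calls were made by the edgeR quasi-likelihood test at a Benjamini-Hochberg adjusted p under 0.05. The called members made up 10.3% of those tested, beside 6.48% of all 15284 genes called in either direction, 3.81% higher and 2.66% lower. The median log2 fold change of the 29 was 0.05, beside 0.00 over all genes. The 3 called were all integrins, Itga8, Itgb7 and Itgb2, and none of the 9 laminins tested passed in this main analysis. With DESeq2, Itga6, Itgb5, Itgb8, Lama3 and Lamb2 were called as well. A block on replicate number added the same genes and also Itgav and Lama1. Without the filter on low counts, Itgb8 and Lama3 were added.

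Itga8 encodes a receptor chain that pairs with Itgb1 and binds nephronectin and other RGD proteins. It was at 0.585, 0.521 and 1.47 CPM in the Foxa2+ CM samples and at 6.93, 8.49 and 9.03 CPM in the Foxa2- CM samples. The groups did not overlap, and every Foxa2- sample was more than 4-fold above every Foxa2+ sample. The log2 fold change was -3.21 (SE 0.36, edgeR adjusted p = 0.00428), a 9.27-fold lower level in Foxa2+ CM, and Itga8 was called in all 12 alternative settings tried. Of the exons of Itga8, which lies at chr2:12106632-12301922 on the minus strand of mm10, 5.05% overlap those of a gene on the other strand, and whether the counting used strand is not given in the sources used here.

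Itgb8, the beta chain of a receptor for latent TGF-beta, had the next largest difference. It was at 0.292, 0.405 and 1.13 CPM in Foxa2+ CM and at 1.55, 1.83 and 5.59 CPM in Foxa2- CM. The groups did not overlap, yet the difference did not pass (log2 fold change -2.27, SE 0.65, edgeR adjusted p = 0.0903).

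The called beta chains were higher in Foxa2+ CM. Itgb7, which pairs with Itga4 or Itgae, was at 19.5, 17.1 and 15.8 CPM in Foxa2+ CM and at 9.29, 6.35 and 10.6 CPM in Foxa2- CM. Its log2 fold change was 0.99 (SE 0.20, edgeR adjusted p = 0.0271). Itgb2, the beta chain of leukocyte integrins, had a lower count and is named after its value was seen. It had 33 to 51 counts in Foxa2+ CM and 7 to 18 in Foxa2- CM, with a log2 fold change of 1.60 (SE 0.31, edgeR adjusted p = 0.0247). Neither pair of groups overlapped. Of the alpha partners of Itgb2, Itgam and Itgax had the counts given above and Itgal had 4 to 11 in CM. Of those of Itgb7, Itga4 had 21 to 90 counts in CM with no call (log2 fold change -0.45, SE 0.45, edgeR adjusted p = 0.722). Itgae had 26 to 49 counts there and was not called either (log2 fold change -0.41, SE 0.24, edgeR adjusted p = 0.441). The calls of both Itgb7 and Itgb2 were lost with Foxa2+ replicate 1 or 2 or Foxa2- replicate 2 left out, that of Itgb7 also with Foxa2- replicate 1 left out, and both with all 10 samples in 1 model.

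The main receptor and laminin chains differed little between the CM groups. Itgb1 was at 296 to 342 CPM in Foxa2+ CM and at 291 to 348 CPM in Foxa2- CM, a log2 difference of 0.01 (SE 0.09, edgeR adjusted p = 0.989). For Itga6 the ranges were 233 to 255 and 198 to 218 CPM, which did not overlap, with a log2 fold change of 0.25 (SE 0.06, edgeR adjusted p = 0.0607). Itgav, the vitronectin receptor alpha chain, gave 0.28 (SE 0.09, edgeR adjusted p = 0.115) and Itga5 gave 0.19 (SE 0.08, edgeR adjusted p = 0.283) on the same log2 scale.

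Among laminins, Lama1 was at 82.2, 108 and 119 CPM in Foxa2+ CM and at 59.1, 58.4 and 99.0 CPM in Foxa2- CM, with overlapping groups and a log2 fold change of 0.51 (SE 0.22, edgeR adjusted p = 0.27). Lama3 was at 9.43, 14.5 and 14.4 CPM against 2.29, 2.06 and 7.90 CPM, and Lamb2 at 152, 162 and 172 CPM against 104, 105 and 146 CPM. In both, the third Foxa2- sample lay nearest to the Foxa2+ samples, and neither passed (edgeR adjusted p = 0.105 for Lama3 and 0.106 for Lamb2). Lama5, Lamb1 and Lamc1 had log2 fold changes of 0.13 (SE 0.09), 0.00 (SE 0.09) and 0.17 (SE 0.14), with edgeR adjusted p of 0.564, 0.993 and 0.626. Lamb1 made up 45.6% ± 0.19 (SD, n = 3) of the summed beta chain level per kb in Foxa2+ CM and 53.8% ± 2.63 (SD, n = 3) in Foxa2- CM.

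Several members followed replicate 3 in both groups. Itga2b was at 10.6 and 20.5 CPM in the third Foxa2+ and Foxa2- samples against 4.53 to 6.37 CPM in the other 4, and Itga9 at 168 and 177 CPM against 76.7 to 109 CPM. Lama4, a laminin chain of vessels and muscle, was at 100.5 and 131 CPM against 56.3 to 83.6 CPM, and Itga3 at 34 and 41.6 CPM against 17.0 to 26.6 CPM. In the same 2 samples the blood and endothelium markers summed to 624 and 605 CPM, against 371 to 494 CPM in the other 4, and their part in these levels was not tested. With replicate 3 of both groups left out, 13 of 29 members were called, 11 higher and 2 lower, beside 17.4% of all genes. The 3 genes called in the main analysis were among the 13, and the others were Itga3, Itga6, Itgav, Itgb3, Itgb8, Lama1, Lama2, Lama3, Lamb2 and Lamc1.

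**Figure D2:**
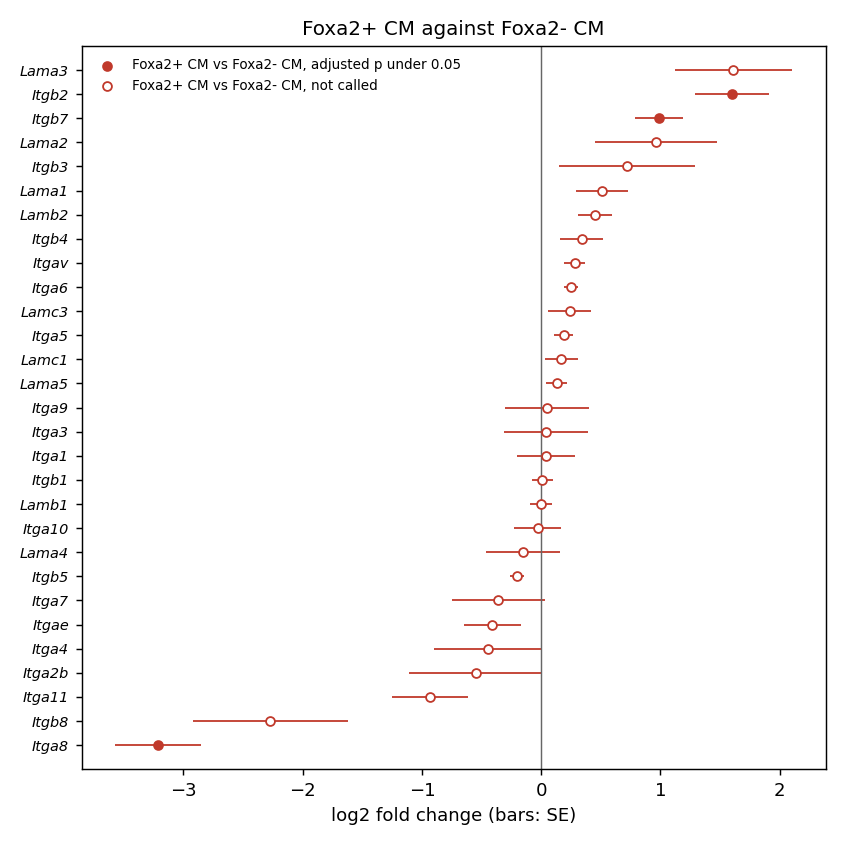
Log2 fold change of Foxa2+ CM over Foxa2- CM for the 29 tested members, with bars of 1 SE, filled points for adjusted p under 0.05 and open points for the rest. Itga8 lies farthest below 0 at -3.21, Itgb2 and Itgb7 are the filled points above 0, and Itgb1 and Lamb1 lie at 0.

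Endoderm differed from cardiac mesoderm in most members. Against Foxa2+ CM, 7 of 30 tested were higher in endoderm and 16 were lower, beside 35% of all 16180 genes called in either direction, 18.3% higher and 16.7% lower. Against Foxa2- CM, 6 were higher and 14 lower, beside 30.1% of all genes, 16.1% higher and 14% lower. The median log2 fold changes of the 30 were -0.84 and -0.81, and that of all genes was 0.01 in each. Of the 10 laminins, 4 were higher and 5 lower in both comparisons, and of the 20 integrins tested 3 were higher and 11 lower against Foxa2+ CM, and 2 and 9 against Foxa2- CM. The endoderm samples also had the highest pluripotency marker levels given above, whose part in these differences was not tested, and the comparisons share the endoderm samples.

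The laminin chains that rose in endoderm were Lama5, Lamb1 and Lamc1, which together form a trimer, and the weakly expressed Lamb3. Lama5 was at 758 and 919 CPM in endoderm, at 512 to 525 CPM in Foxa2+ CM and at 435 to 535 CPM in Foxa2- CM. Lamb1 was at 341 and 412 CPM in endoderm against 207 to 235 and 200.2 to 248 CPM, and Lamc1 at 363 and 450.1 CPM against 239.7 to 279 and 189 to 280.4 CPM. For each of these 3 genes both endoderm samples lay above all 6 CM samples. The differences were modest: against Foxa2+ CM the log2 fold changes were 0.70 (SE 0.13, edgeR adjusted p = 0.0033) for Lama5, 0.77 (SE 0.14, edgeR adjusted p = 0.00242) for Lamb1 and 0.63 (SE 0.15, edgeR adjusted p = 0.00995) for Lamc1. Against Foxa2- CM they were 0.82 (SE 0.13, edgeR adjusted p = 0.00157), 0.76 (SE 0.14, edgeR adjusted p = 0.00296) and 0.81 (SE 0.15, edgeR adjusted p = 0.00347). Without endoderm replicate 2, the higher of the endoderm samples in all 3 genes, Lamc1 was no longer called against either CM group and Lama5 was not called against Foxa2+ CM. Without Foxa2+ replicate 1 the Lamc1 call against Foxa2+ CM was also lost.

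Lama5 lies at chr2:180176373-180225859 on the minus strand and Lamb1 at chr12:31265234-31329644 on the plus strand (mm10). Because these chains rose together, the 250 bases before the RefSeq start of each are shown 5′ to 3′ (GRCm38.p6, chr2:180225860-180226109 on the minus strand and chr12:31265043-31265292 on the plus strand). Capitals mark the GC box GGGCGG, or its complement CCGCCC.
Lama5: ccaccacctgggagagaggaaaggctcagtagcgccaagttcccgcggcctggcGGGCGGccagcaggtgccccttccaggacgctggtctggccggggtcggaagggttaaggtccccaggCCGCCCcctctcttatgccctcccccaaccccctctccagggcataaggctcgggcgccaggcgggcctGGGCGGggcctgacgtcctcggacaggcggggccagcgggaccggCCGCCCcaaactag
Lamb1: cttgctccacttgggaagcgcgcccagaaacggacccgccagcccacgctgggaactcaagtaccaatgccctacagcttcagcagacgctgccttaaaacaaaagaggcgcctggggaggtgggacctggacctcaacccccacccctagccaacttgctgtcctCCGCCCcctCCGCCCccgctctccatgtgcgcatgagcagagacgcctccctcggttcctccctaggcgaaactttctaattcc
The Lama5 window held 4 GC boxes and the Lamb1 window 2, and 32.7% of 32851 windows of this length hold at least 1 on either strand. Of the 23 members with a window, 8 held a GC box, near that share. Among them was Itga5, which was lower in endoderm. Lamc1 had no window. Neither window held the GATA factor motif AGATAA on either strand, which 9.99% of windows hold. Nor did either hold the forkhead motif TGTTTAC (3.17% of windows) or the TATA box TATAAA (12.4% of windows), searched in the same way. A match to such letters is a description of the sequence and not a bound site.

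Opposite to these chains, Lama1, Lama3, Lama4, Lamb2 and Lamc3 were lower in endoderm than in either CM group. Lama4 was at 3.45 and 4.02 CPM in endoderm, against 56.3 to 100.5 CPM in Foxa2+ CM and 57.7 to 131 CPM in Foxa2- CM. Lama1, the laminin alpha chain of the early embryo's basement membranes, was at 8.94 and 15.7 CPM against 82.2 to 119 and 58.4 to 99.0 CPM. The falls were 21.4-fold for Lama4 (log2 fold change -4.42, SE 0.44, edgeR adjusted p = 9.14e-05) and 8.31-fold for Lama1 (-3.06, SE 0.41, edgeR adjusted p = 0.000483) against Foxa2+ CM. Against Foxa2- CM the log2 fold changes were -4.57 (SE 0.44, edgeR adjusted p = 8.7e-05) for Lama4 and -2.54 (SE 0.40, edgeR adjusted p = 0.00146) for Lama1. Both genes were called in all 16 alternatives of each comparison.

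Lama3, a chain of epithelial laminins, was at 0.652 and 0.669 CPM in endoderm, below all CM samples, which spanned 2.06 to 14.5 CPM. Its log2 fold change was -4.26 against Foxa2+ CM (SE 0.79, edgeR adjusted p = 0.0029) and -2.63 against Foxa2- CM, where the call was lost without either endoderm sample or without Foxa2- replicate 3. Lamb2 was at 58.2 and 71.4 CPM in endoderm and at 104 to 172 CPM in CM, with log2 fold changes of -1.32 and -0.87. Lamc3 was all but absent from endoderm, with 1 and 2 counts, against 59 to 104 counts in the CM samples. The CM level was 39.5 times the endoderm level for Foxa2+ CM (95% exact interval 13.3 to 193) and 33.2 times for Foxa2- CM (11.2 to 162), intervals that cover counting error only. Of the exons of Lamc3, 6.27% overlap those of a gene on the other strand.

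The balance of laminin chains therefore differed between the tissues. Lama5 took 97.4% and 98% of the summed alpha chain level per kb in the endoderm samples. It took 67.1% to 76.2% in Foxa2+ CM and 68.2% to 77.5% in Foxa2- CM, where Lama1 took 16.6% ± 2.04 (SD, n = 3) and 12.9% ± 1.71 (SD, n = 3) and Lama4 took 10.3% ± 2.30 (SD, n = 3) and 12.6% ± 3.07 (SD, n = 3). With the longest transcript as length the Lama4 shares were 18.5% and 22.2%, above the 15.2% and 11.6% of Lama1. Lamb1 took 77.7% ± 0.273 (SD, n = 2) of the summed beta level in endoderm. The shares of the endoderm samples did not overlap those of any CM sample for either chain.

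**Figure D3:**
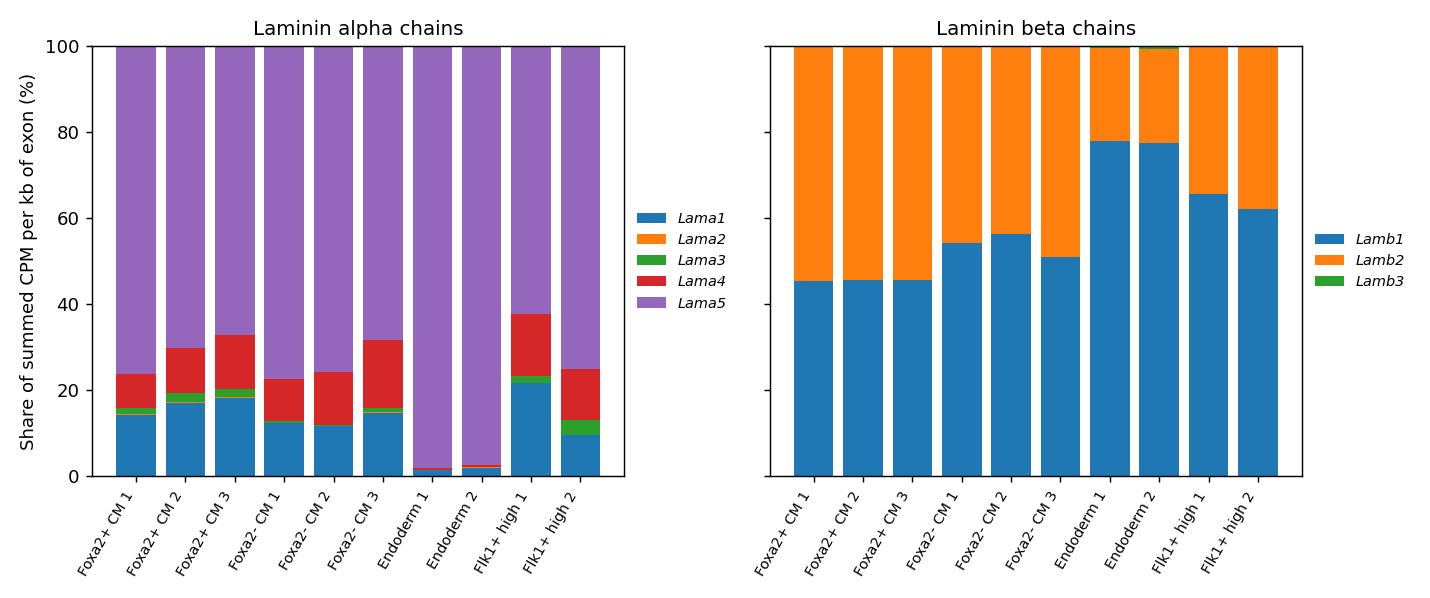
Share of each alpha chain (left) and beta chain (right) in the summed laminin level of its family, in percent of CPM per kb of merged exon, with 1 bar for each sample. Lama5 fills 97.4% and 98% of the alpha bars in endoderm and 62.2% to 77.5% elsewhere, and Lamb1 fills 77.5% and 77.9% of the beta bars in endoderm.

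Of the integrin receptors for laminin, Itga6 was lower in endoderm, at 108 and 113 CPM against 233 to 255 CPM in Foxa2+ CM and 198 to 218 CPM in Foxa2- CM. Its log2 fold change was -1.16 (SE 0.17, edgeR adjusted p = 0.000793) and -0.91 (SE 0.17, edgeR adjusted p = 0.00344), and both calls held in all 16 alternatives. Itga3 was at 48.1 and 56.9 CPM in endoderm, above all CM samples (17.0 to 41.6 CPM), but did not pass (edgeR adjusted p = 0.142 and 0.138). It was called in a few alternatives, among them the replicate block against both CM groups. Itga7, the laminin receptor chain of muscle, had 7 and 10 counts in endoderm and 21 to 62 in CM, and was called lower. Itgb4, the partner of Itga6 in hemidesmosomes, had 23 to 60 counts in all 10 samples and was called in none of the 6 comparisons.

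The receptors of fibronectin and other RGD proteins moved in both directions. Itga5 was at 124 and 165 CPM in endoderm against 226 to 269.7 and 198 to 232 CPM, with log2 fold changes of -0.77 (SE 0.17, edgeR adjusted p = 0.0059) and -0.59 (SE 0.17, edgeR adjusted p = 0.024). The second of these was lost without endoderm replicate 1 or Foxa2- replicate 1. Itgav was at 80.1 and 70.8 CPM against 114 to 139 and 97.9 to 109.8 CPM, with log2 fold changes of -0.76 (SE 0.12, edgeR adjusted p = 0.00114) and -0.49 (SE 0.12, edgeR adjusted p = 0.0135). In both genes the endoderm samples lay below all CM samples.

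Itga8 went the other way. It was at 29.2 and 17.4 CPM in endoderm, with a log2 fold change of 4.73 over Foxa2+ CM (SE 0.64, edgeR adjusted p = 0.000522). Against Foxa2- CM the log2 fold change was 1.51 and did not pass (SE 0.55, edgeR adjusted p = 0.067). There Itga8 was called in some alternatives, among them DESeq2, no filter on low counts, the replicate block and only the 2 groups compared. Itgb8 was at 9.5 and 12 CPM in endoderm, a log2 fold change of 4.09 over Foxa2+ CM (SE 0.63, edgeR adjusted p = 0.00104) and of 1.83 over Foxa2- CM (SE 0.56, edgeR adjusted p = 0.0343). The levels of both genes thus ran upward from Foxa2+ CM through Foxa2- CM to endoderm. The call of Itgb8 against Foxa2- CM was lost without either endoderm sample or without Foxa2+ replicate 2 or Foxa2- replicate 1 or 2.

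Of the collagen receptors, Itga1 was at 15.2 and 9.95 CPM in endoderm and at 3.27 to 5.38 CPM in CM, with log2 fold changes of 1.51 (SE 0.44, edgeR adjusted p = 0.025) and 1.55 (SE 0.44, edgeR adjusted p = 0.0266), both lost without endoderm replicate 1, and also without Foxa2+ replicate 1 or 3 in the first comparison and any 1 Foxa2- replicate in the second. Itga10 went down, at 2.14 and 3.26 CPM against 4.6 to 7.24 CPM in CM, and Itga11 was called lower on 2 and 5 counts. The alpha4 family member Itga9, a tenascin and osteopontin receptor, was at 21.8 and 28.3 CPM in endoderm and at 76.7 to 177 CPM in CM. Its log2 fold change was -2.25 against Foxa2+ CM and -2.20 against Foxa2- CM (SE 0.43 in each, edgeR adjusted p = 0.00338 and 0.00448). Itga4 itself, whose exons overlap another gene by 8.04%, had 11 and 14 counts in endoderm and was not called (edgeR adjusted p = 0.214 and 0.0832).

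Itgb1 was at 353 and 357 CPM in endoderm, with a log2 fold change of 0.18 (SE 0.10) against each CM group (edgeR adjusted p = 0.203 and 0.212), and Itgb5 was called in neither comparison. Itgb7 was at 4.19 and 3.18 CPM in endoderm and was called lower than Foxa2+ CM only (log2 fold change -2.25, SE 0.60, edgeR adjusted p = 0.0163). Itgb3 had 2 and 7 counts in endoderm, a log2 fold change of -3.79 from Foxa2+ CM (SE 0.87, edgeR adjusted p = 0.00844) and of -3.07 from Foxa2- CM. The platelet integrin alpha chain Itga2b was at 1.12 and 1.42 CPM, with log2 fold changes of -2.49 and -3.04 (SE 0.77 and 0.76, edgeR adjusted p = 0.0322 and 0.0151). Itgb2, on 4 and 5 counts in endoderm, was called lower than Foxa2+ CM. Several of these calls rested on both endoderm samples. Those of Itgb3 and Itga2b against Foxa2- CM and of Itga2b and Itgb7 against Foxa2+ CM were lost without either, as was that of Itga7 against both CM groups. Those of Itgb3 against Foxa2+ CM, Itga9 against Foxa2- CM and Itga10 against both were lost without replicate 1, and those of Itgav against Foxa2- CM and Lamb3 against both without replicate 2. Against Foxa2+ CM the calls of Itga2b and Lamb3 were also lost without Foxa2+ replicate 2 or 3, and that of Itga11 without endoderm replicate 1 or Foxa2+ replicate 1 or 2. That of Itga7 was lost in 8 of 16 alternatives against Foxa2+ CM and in 4 against Foxa2- CM.

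**Figure D4:**
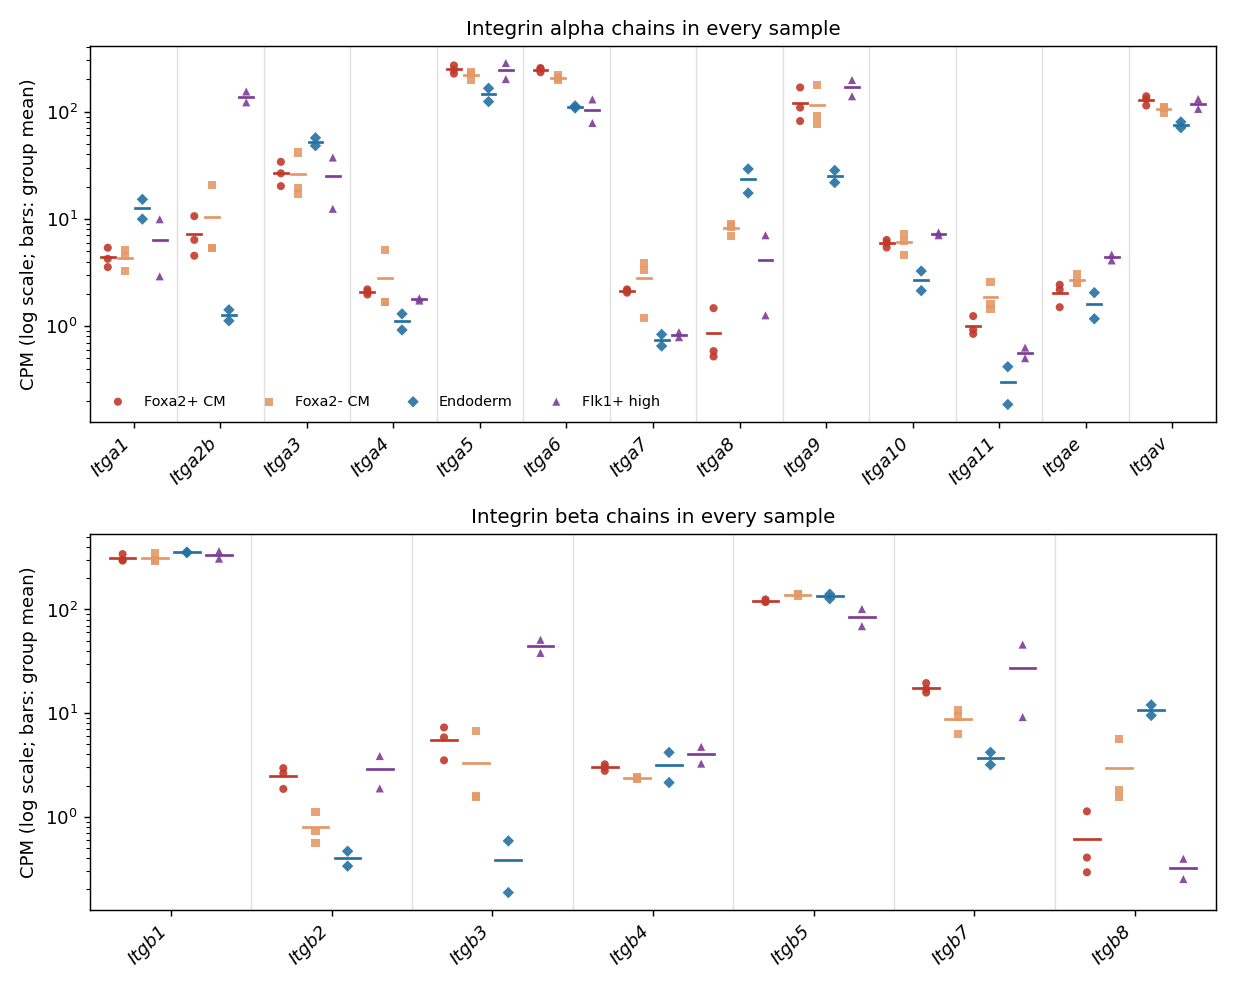
Level of the 13 integrin alpha chains (top) and 7 beta chains (bottom) that passed the filter, in CPM on a log axis, with each point 1 sample, colour and shape giving the group, and short bars the group mean. Itga2b and Itgb3 are highest in the 2 Flk1+ high samples, Itga8 and Itgb8 are highest in the 2 endoderm samples, and the Itgb1 points of all groups lie together.

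Fewer members were called between Flk1+ high and cardiac mesoderm. Against Foxa2+ CM, 4 of 30 were higher and 4 lower, beside 22.8% of all 16180 genes, 11.6% higher and 11.2% lower. Against Foxa2- CM, 4 were higher and 6 lower, beside 21.6% of all genes, 11.3% higher and 10.3% lower. The median log2 fold changes were 0.03 and 0.13, beside 0.03 and 0.02 over all genes, and the called members made up 26.7% and 33.3% of those tested.

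The largest rises were those of Itga2b and Itgb3, which encode the 2 chains of the platelet fibrinogen receptor. Itga2b, also known as CD41 and an early marker of blood commitment in the embryo, was at 122 and 154 CPM in Flk1+ high. It was at 4.53 to 10.6 CPM in Foxa2+ CM and 5.32 to 20.5 CPM in Foxa2- CM. Itgb3 was at 38.1 and 51.0 CPM in Flk1+ high, against 3.51 to 7.28 and 1.55 to 6.77 CPM. For both genes the Flk1+ high samples lay above all 8 others.

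The log2 fold change of Itga2b was 4.25 over Foxa2+ CM (SE 0.56, edgeR adjusted p = 0.00103) and 3.71 over Foxa2- CM (SE 0.54, edgeR adjusted p = 0.0017), 19.0-fold and 13.1-fold. That of Itgb3 was 3.00 (SE 0.57, edgeR adjusted p = 0.00551) and 3.72 (SE 0.59, edgeR adjusted p = 0.00243), 7.98-fold and 13.2-fold. All 4 calls held in all 16 alternatives. Per kb, Itga2b was at a mean of 25.3 CPM and took 19.8% ± 1.30 (SD, n = 2) of the summed alpha chain level, while Itgb3 was at a mean of 7.55 CPM and took 5.98% ± 0.530 (SD, n = 2) of the beta level. The summed level of the platelet or megakaryocyte markers was also higher, at 15.6 to 24.3 CPM in Flk1+ high and 2.7 to 6.43 CPM in CM. Only 2 or 3 of the 7 reached 3 counts in a Flk1+ high sample. The 2 of 7 that were tested were both called higher than in either CM group. Of all genes, 22.8% were called against Foxa2+ CM and 21.6% against Foxa2- CM, in either direction. Gp1ba, a chain of the von Willebrand factor receptor, had 297 and 151 counts in Flk1+ high, whereas Pf4, Gp9, Gp1bb, Gp6 and Ppbp had 0 to 4. The part of these markers in the rises of Itga2b and Itgb3 was not tested. Itga2b lies at chr11:102453297-102470122 on the minus strand and Itgb3 at chr11:104608000-104670476 on the plus strand (mm10).

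The remaining rises were smaller and less certain. Itgae had 52 and 74 counts in Flk1+ high and 26 to 43 in Foxa2+ CM and was called against the latter (log2 fold change 1.10, SE 0.29, edgeR adjusted p = 0.0242), a call lost without either Flk1+ high sample or without Foxa2+ replicate 1 or 2. Itgb2 was called against Foxa2- CM, with 30 and 49 counts against 7 to 18, and the call was lost without Flk1+ high replicate 2. The leukocyte markers had a higher sum in the same samples, as given above, but Ptprc, 1 of the 7, had 0 counts in both. Against Foxa2- CM, 1 of the 4 that were tested was called higher (25%, beside 21.6% of all genes). The part of these markers in the rise of Itgb2 was not tested. Itga8 was at 7.03 and 1.26 CPM in the 2 samples, and Itgb7 at 9.16 and 45.8 CPM. In both genes the 2 Flk1+ high samples differed about 5-fold from each other, and their ranges overlapped that of the group they were called against.

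For Itga8 the log2 fold change over Foxa2+ CM was 2.26 (SE 0.66, edgeR adjusted p = 0.035). It was 0.53 without Flk1+ high replicate 1 (edgeR adjusted p = 0.581) and 0.53 to 2.96 over all alternatives. For Itgb7 that over Foxa2- CM was 1.64 (SE 0.51, edgeR adjusted p = 0.0482). It was 0.04 without Flk1+ high replicate 2 (edgeR adjusted p = 0.952), and the call was lost in 13 of 16 alternatives, over which the value ran from 0.04 to 2.39.

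Among the chains that fell in Flk1+ high, Itga6 was at 78.3 and 129.9 CPM, below all 6 CM samples. Its log2 fold change was -1.24 (SE 0.17, edgeR adjusted p = 0.00123) from Foxa2+ CM and -0.99 (SE 0.17, edgeR adjusted p = 0.00351) from Foxa2- CM. Itgb5 was at 101 and 69.0 CPM against 118 to 142 CPM in CM, with log2 fold changes of -0.50 (SE 0.13, edgeR adjusted p = 0.0253) and -0.70 (SE 0.13, edgeR adjusted p = 0.00584). The first of these was lost without Flk1+ high replicate 2 or without Foxa2+ replicate 2 or 3.

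Lamc3 had 8 and 6 counts in Flk1+ high and 59 to 104 in CM, with log2 fold changes of -3.40 (SE 0.29, edgeR adjusted p = 0.000144) and -3.16. Lamb2 was at 92.9 and 80.6 CPM, below all 6 CM samples, and was called against Foxa2+ CM (log2 fold change -0.90, SE 0.16, edgeR adjusted p = 0.00403) and not against Foxa2- CM (-0.45, SE 0.16, edgeR adjusted p = 0.0738). Against Foxa2- CM, 3 members of low count were also called lower: Itgb8 with 4 and 5 counts against 23 to 99, Itga7 with 10 and 14 against 21 to 62, and Itga11 with 8 and 8 against 18 to 46. The calls of Itgb8 and Itga7 were lost without either Flk1+ high sample, that of Itga7 also without Foxa2+ replicate 2 or Foxa2- replicate 1 or 2, and that of Itga11 without Flk1+ high replicate 1. No laminin was called higher in Flk1+ high by edgeR with all samples. Lama3 did not pass against Foxa2- CM (log2 fold change 1.79, SE 0.58, edgeR adjusted p = 0.0536), but was called in 6 of 16 alternatives, among them DESeq2, no filter on low counts, the replicate block and the omission of Foxa2- replicate 3 or Flk1+ high replicate 1. Lama1 was at 107 and 52.1 CPM, Lama4 at 90.2 and 80.6 CPM and Lama3 at 7.72 and 21.1 CPM, each overlapping the CM ranges, and Lama2 had 6 to 40 counts over the 10 samples and was called in no comparison.

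Lama5, Lamb1 and Lamc1 were at 363 and 481, 290 and 215, and 294 and 277 CPM, with log2 fold changes between -0.29 and 0.30 and no call against either CM group. Itgb1, Itga5, Itgav and Itga4 were likewise not called, with log2 fold changes of 0.11, -0.03, -0.11 and -0.23 from Foxa2+ CM and 0.11, 0.15, 0.16 and -0.67 from Foxa2- CM. The blood and endothelium markers were at their highest summed level in Flk1+ high, and their part in the differences of this group was not tested.

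**Figure D5:**
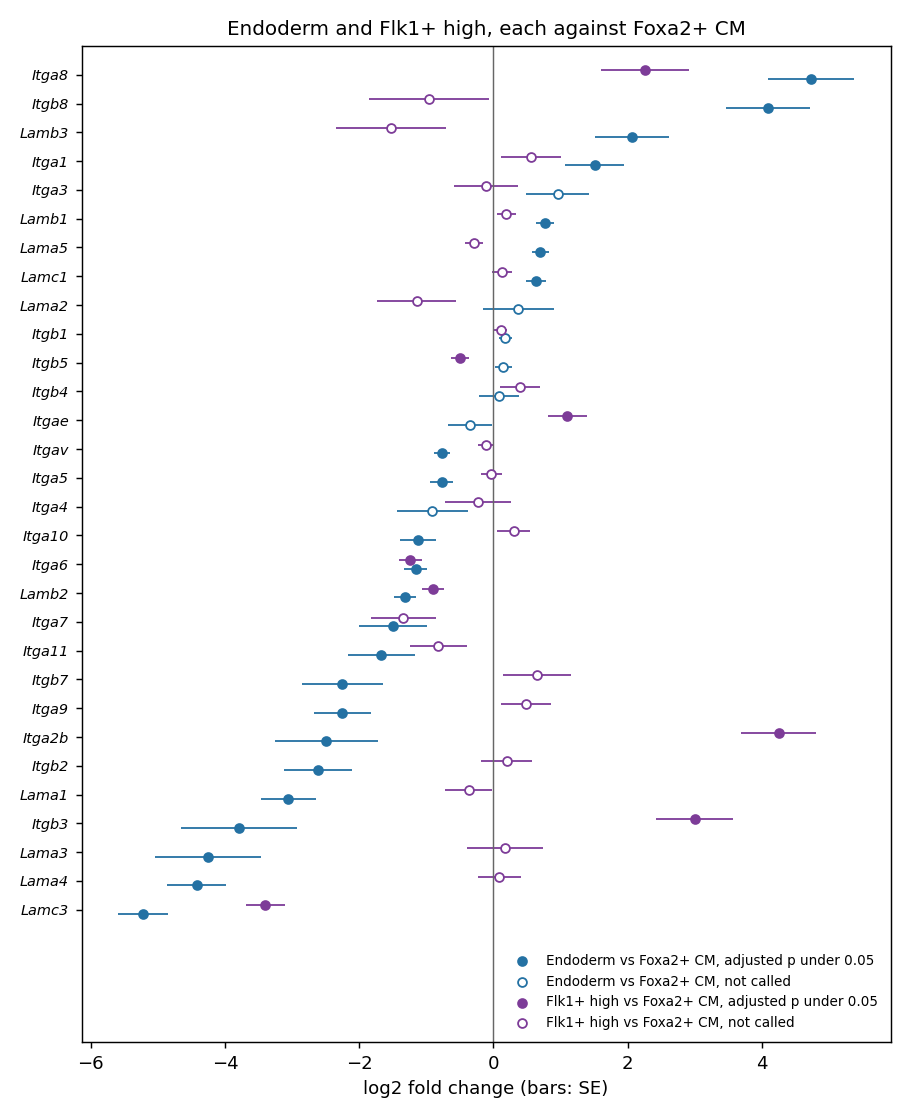
Log2 fold changes over Foxa2+ CM of the 30 tested members in endoderm and in Flk1+ high, with bars of 1 SE, filled points for adjusted p under 0.05 and open points for the rest. Both comparisons share the Foxa2+ CM samples. Itga2b and Itgb3 lie on opposite sides of 0 in the 2 comparisons, and Itga6, Lamb2 and Lamc3 are filled points below 0 in both.

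Set directly against each other, endoderm was higher than Flk1+ high in 7 of the 30 members and lower in 12, beside 32.6% of all 16180 genes, 16.4% higher and 16.2% lower (median log2 fold change -0.54, and 0.00 over all genes). The widest gaps were those of Itgb3 (log2 fold change -6.79, SE 0.90, edgeR adjusted p = 0.000486) and Itga2b (-6.74, SE 0.81, edgeR adjusted p = 0.000284). Lama4 (-4.51, SE 0.46, edgeR adjusted p = 0.000111), Lama3 (-4.42, SE 0.82, edgeR adjusted p = 0.00291) and Lama1 (-2.69, SE 0.43, edgeR adjusted p = 0.00127) were also lower in endoderm. Itga5 (-0.75, SE 0.18, edgeR adjusted p = 0.0107) and Itgav (-0.65, SE 0.13, edgeR adjusted p = 0.00418) were lower to a lesser degree, and Itga9, Itga10, Itgae, Itgb2 and Itgb7 completed the 12. The call of Itga5 was lost without endoderm replicate 1 or Flk1+ high replicate 2, and those of Itgae and Itgb7 without endoderm replicate 2. Of the 12, Itgb2 and Itgb7 were not called in endoderm against Foxa2- CM and Itgae was called against neither CM group. All 3 comparisons share the 2 endoderm samples.

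Higher in endoderm were Itgb8 (5.05, SE 0.82, edgeR adjusted p = 0.00148), Itga8 (2.46, SE 0.65, edgeR adjusted p = 0.0173), Lama5 (0.99, SE 0.15, edgeR adjusted p = 0.000987), Lamb1 (0.58, SE 0.15, edgeR adjusted p = 0.0174), Itgb5 (0.65, SE 0.15, edgeR adjusted p = 0.00767) and Lamc1 (0.51, SE 0.17, edgeR adjusted p = 0.0431). The call of Lamc1 was lost in 9 of 16 alternatives, among them the omission of either endoderm or either Flk1+ high sample, that of Lamb1 without endoderm or Flk1+ high replicate 2, that of Itga8 without endoderm replicate 1 and that of Itgb5 without endoderm replicate 2. Not called were Itga6 (0.09, SE 0.18, edgeR adjusted p = 0.76) and Itgb1 (0.07, SE 0.11, edgeR adjusted p = 0.66), and Itga4 gave -0.68 (SE 0.58, edgeR adjusted p = 0.416). Lamb3 had 14 and 27 counts in endoderm and 2 and 2 in Flk1+ high, a ratio of 12.9 (95% exact interval 4.69 to 49.7, counting error only).

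The proteins that join laminins and integrins were followed through 4 further lists, each count beside the share of all genes called in that comparison. Of 24 basement membrane partners, 20 were tested between the CM groups, and 3 were higher in Foxa2+ CM with none lower (15%, beside 6.48% of all genes). Among them were the type IV collagen chains Col4a5 (log2 fold change 1.07, SE 0.24, edgeR adjusted p = 0.0367) and Col4a6 (0.95, SE 0.19, edgeR adjusted p = 0.0253). In endoderm, 5 of 21 were higher and 8 lower than in Foxa2+ CM (61.9%, beside 35%), and 4 and 7 against Foxa2- CM (52.4%, beside 30.1%). The same collagen chains were the largest falls, by -4.23 for Col4a6 and -3.75 for Col4a5 against Foxa2+ CM and by -3.28 and -2.67 against Foxa2- CM, while Ltbp1, a latent TGF-beta binding protein, was higher by 0.99 and 0.85. Flk1+ high had 2 higher and 9 lower against Foxa2+ CM (52.4%, beside 22.8%), and 3 and 6 against Foxa2- CM (42.9%, beside 21.6%). There the collagen XVIII gene Col18a1 (1.94 and 1.36) and Hmcn1 (2.51 and 2.43) were higher, and Ntn4 (-2.12 and -2.02) and Frem1 (-2.22 and -2.50) were lower. Endoderm against Flk1+ high gave 7 higher and 9 lower (76.2%, beside 32.6%), with the laminin-binding linker Nid1 lowest at -3.12 and Frem2 highest at 2.69.

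Of 14 laminin receptors other than integrins, all were tested. Foxa2+ CM was higher than Foxa2- CM in 2 and lower in none (14.3%, beside 6.48% of all genes), namely Sgcb (log2 fold change 0.52, SE 0.07, edgeR adjusted p = 0.00573), a sarcoglycan of the dystroglycan complex, and the syndecan Sdc2 (0.51, SE 0.10, edgeR adjusted p = 0.0217). Endoderm was lower than Foxa2+ CM in 7 and higher in none (50%, beside 35%), and lower than Foxa2- CM in 5 and higher in 1 (42.9%, beside 30.1%), with Sgcb at -1.97 and -1.46. Dag1, which encodes dystroglycan, was the 1 that was higher, at 0.24. Flk1+ high had 1 higher and 3 lower against each CM group, 28.6% beside 22.8% and 21.6% of all genes and so near the background, the lowest being the syndecan Sdc4 at -1.68 and -1.22. Endoderm against Flk1+ high gave 2 higher and 4 lower (42.9%, beside 32.6%), with Sdc4 at 1.70 and Bcam, a receptor of laminin alpha5, at 1.51.

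Of 30 integrin ligands other than laminins, 20 were tested. Between the CM groups 20% were called, beside 6.48% of all genes: 1 was higher in Foxa2+ CM, Icam1 (log2 fold change 1.02, SE 0.18, edgeR adjusted p = 0.0164), and 3 were lower, among them thrombospondin Thbs1 (-1.32, SE 0.27, edgeR adjusted p = 0.0274) and Tgfb1 (-0.41, SE 0.07, edgeR adjusted p = 0.018). Endoderm was lower in 11 and higher in 2 against Foxa2+ CM (65%, beside 35%), and lower in 9 and higher in 2 against Foxa2- CM (55%, beside 30.1%). Cdh1, the epithelial cadherin and a ligand of Itgae with Itgb7, was higher by 5.51 (SE 0.13, edgeR adjusted p = 8.86e-08) and 4.96 (SE 0.13, edgeR adjusted p = 1.34e-07). Against Foxa2- CM the nephronectin gene Npnt, whose product binds the Itga8 receptor, was higher by 1.62 (SE 0.40, edgeR adjusted p = 0.0137). Col1a1 was lower by the most against Foxa2- CM, at -6.24, and Icam2 against Foxa2+ CM, at -5.09. Flk1+ high had 6 higher and 1 lower against Foxa2+ CM (35%, beside 22.8%) and 7 and 3 against Foxa2- CM (50%, beside 21.6%). Vwf, the von Willebrand factor, was higher in both (2.63 and 4.33), Thbs1 was called higher than in Foxa2+ CM at 2.91, on 36.8 and 2.68 CPM in the 2 samples against 1.75 to 3.05 CPM, and Edil3, an integrin-binding matrix protein of vessels, was higher than in Foxa2- CM at 4.06. Col1a1 and Cdh1 were lower than in Foxa2- CM, at -3.19 and -0.45. Endoderm against Flk1+ high gave 2 higher and 11 lower (65%, beside 32.6%), with Cdh1 at 5.42 and Icam2 at -6.71.

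Of 38 proteins of the adhesion complex inside the cell, 37 were tested. Foxa2+ CM was higher in 3 and lower in none, 8.11% beside 6.48% of all genes and so near the background, with Nedd9, a docking protein of focal adhesions, at a log2 fold change of 1.54 (SE 0.16, edgeR adjusted p = 0.00305) and Tns1 at 0.76 (SE 0.14, edgeR adjusted p = 0.0215). Endoderm had 7 higher and 15 lower against Foxa2+ CM (59.5%, beside 35%), and 6 and 10 against Foxa2- CM (43.2%, beside 30.1%). Of the kindlins, which activate integrins through the beta chain, the epithelial Fermt1 was higher in endoderm by 4.85 (SE 0.58, edgeR adjusted p = 0.000257) and 4.68 (SE 0.58, edgeR adjusted p = 0.000356). The blood cell kindlin Fermt3 was higher in Flk1+ high by 2.10 (SE 0.32, edgeR adjusted p = 0.00191) and 3.13 (SE 0.33, edgeR adjusted p = 0.000446), and was lower in endoderm than in Foxa2+ CM at -2.31. Flk1+ high had 8 higher and 6 lower against Foxa2+ CM (37.8%, beside 22.8%), and 10 and 4 against Foxa2- CM (37.8%, beside 21.6%), where Nedd9 was at -4.01 and -2.48 and Tns1 at -3.41 and -2.66. Endoderm against Flk1+ high gave 8 higher and 14 lower (59.5%, beside 32.6%), with Fermt1 at 4.0 and Fermt3 at -4.41.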

How the data were processed

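RNA sequencing of 10 sorted samples was analysed. From 500 ng of RNA per sample the authors made TruSeq libraries. Reads were 50 nt long and single-end. They were mapped by STAR 2.5.0a against mm10. The authors then removed duplicates with Picard and counted with HTSeq 0.6.0, per the labels and the study's methods. The values they deposited are raw whole-number counts per gene. Duplicate removal without molecular identifiers caps high counts. The strand setting is not given in the sources used here. Rows that name no gene were left out of library sizes and held, with ambiguous reads, 19.5% to 27.8% of uniquely mapped reads.

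Counts were normalised by TMM in edgeR 4.0.16 (R 4.3.3), filtered with the edgeR expression filter and tested with its quasi-likelihood test and Benjamini-Hochberg adjustment over all genes, with a call at adjusted p under 0.05. The CM groups were compared on their 6 samples, and all other pairs in 1 model of 10. The SE was taken as the size of the log2 fold change over the square root of F. Symbols, positions and exon lengths came from GENCODE M21, and promoters from RefSeq (a window for 23 of 35 members). The members, lists and rules were chosen with earlier results of these data known. Fold change, SE and adjusted p are given for the 4 largest rises and falls among called members averaging 50 counts or more and for 9 members always named, values per sample for members with a mean of at least 100 counts in a group, and the 2 largest rises and falls for each further list. In counts simulated from the libraries, 200 of 15284 genes were shifted 2-fold in either direction, drawn only from those with a mean expected count of at least 50. Of these, 83% were called between the CM groups, and 66% for endoderm against Foxa2+ CM (200 of 16180 genes). The shares do not cover members of lower count, such as Itgb2 and Itga4 in CM. Nor do they cover shifts that same-numbered samples share, since each simulated sample was drawn on its own. In the same runs 11 and 8 unshifted genes were also called. Alternatives were DESeq2 1.42.0, its size factors, no filter, a 2-fold limit, a replicate block, other sample sets and each sample left out.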

Additional observations from a re-analysis of the deposited data

How the results depend on the processing

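No called member reversed its direction under any setting. The settings changed the count of members called between the CM groups most: 3 in the main analysis (6.48% of all genes), 8 with DESeq2 (8.66%), 5 without the filter on low counts (4.74%), 1 with all 10 samples in 1 model (1.78%), 13 without replicate 3 of both CM groups (17.4%), and 1 to 7 with 1 sample left out (1.51% to 11%). With the replicate number as a block it was 10 (16.7%). The share of all genes moved along with the count of members in most of these settings. In each of them 29 to 35 members were tested, and the share of them called lay above that of all genes. Where 1 member was called, that gap rested on this gene alone, and the gap was not tested. Same-numbered CM samples had correlated deviations of 0.48, 0.086 and 0.58, and differently numbered ones ran from -0.547 to 0.285. Numbers 1 and 3 thus lay above every differently numbered pair, and number 2 did not. The labels do not say whether same-numbered samples share a culture. The main test therefore left them unpaired, although the numbers may pair some of them. For endoderm against Foxa2- CM the count was 20, 13 at a limit of 2-fold (17.0% of all genes), and 11 to 22 with 1 sample left out (17.7% to 34.1%). For Flk1+ high against Foxa2+ CM it was 8, and 5 to 9 with 1 sample left out (14.4% to 23.3%). For endoderm against Flk1+ high it was 19 (32.6%), and 11 with only the 2 groups compared (17.9%). With the longest transcript in place of merged exons as length, the Lama5 share was 64.4% in Foxa2+ CM, 65.5% in Foxa2- CM and 97.2% in endoderm, and the Itgb1 share in Flk1+ high was 66.0%. The cause of these changes was not tested. Where 1 of 2 samples was left out, the lone sample was assumed to vary like the other groups. Called in every alternative were 1 of 3 members between the CM groups, 13 of 23 and 8 of 20 for endoderm against Foxa2+ and Foxa2- CM, 5 of 8 and 5 of 10 for Flk1+ high, and 11 of 19 for endoderm against Flk1+ high. At 3 counts, depth limits what can be said of the 5 untested members.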
